A study of Mus musculus with 2 samples.

Results

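Selectin-positive endothelial cells of the mouse periodontal ligament were selected by transcripts alone. A cell was taken as endothelial when Pecam1, Cdh5, Emcn, Flt1 and Egfl7 together gave at least 10 unique molecular identifiers (UMIs, each marking 1 captured transcript), with at least 3 of these 5 genes detected and under 1% of the cell's UMIs from the neutrophil genes S100a8 and S100a9. It was called selectin-positive when Selp and Sele together gave at least 3 UMIs. By this rule 150 of the 1412 cells in the orthodontic tooth movement (OTM) library were selectin-positive, or 10.6% (exact Clopper-Pearson 95% interval 9.06% to 12.3%), against 12 of the 348 cells in the control library, or 3.45% (1.79% to 5.95%). They made up 73.9% of the 203 OTM cells that met the endothelial rule (67.3% to 79.8%) and 80.0% of the 15 control cells that met it (51.9% to 95.7%). The other 53 OTM and 3 control endothelial cells held at most 2 selectin UMIs, are called selectin-low here, and served as the comparison. No barcode was shared between the libraries.

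The tissue, which anchors the tooth root to the alveolar bone, came from male C57BL/6J mice aged 8 weeks. For the OTM library a mesial force of 10 g had acted on the left upper first molar for 6 days, and the unloaded right side gave the control library. Tissue left on extracted roots and within their sockets, from 5 mice a group, was pooled, digested with collagenase and trypsin, and run as 1 library a group with the 10x Genomics 3' v3.1 chemistry. Force, library and pool therefore cannot be told apart, no spread between mice could be estimated, and no test was possible. Every interval below covers counting error only, and a difference is a difference between sums of cells in these libraries.

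P-selectin, encoded by Selp, and E-selectin, encoded by Sele, are membrane lectins with which blood vessels catch passing leukocytes and let them roll along the wall. In textbook accounts P-selectin is stored in the Weibel-Palade bodies of endothelial cells and released within minutes, E-selectin is made after stimulation by interleukin 1 or tumour necrosis factor, and both are typical of post-capillary venules. Rolling is followed by arrest on ligands of leukocyte integrins such as ICAM1 and VCAM1, helped by chemokines held on the vessel surface.

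In the OTM library the 150 selectin-positive cells held 4650266 UMIs, with a lowest, median and highest count of 1854, 22981.5 and 114440 UMIs per cell, and the 53 selectin-low cells held 1525495 UMIs, with a median of 21416. In the control library the 12 selectin-positive cells held 250702 UMIs, with a lowest, median and highest count of 6529, 17962 and 48946, and the 3 selectin-low cells held 82052. Levels are given as CPM, the summed UMIs of a gene per 1000000 summed UMIs of a group of cells, and ratios as log2 with a 95% counting interval in brackets. The sums from the OTM library are thus the more precise ones, and the 12 control cells limited each comparison with them.

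Selp and Sele, which chose the cells, are described first. In the OTM library the selectin-positive cells held 12114 Selp UMIs in total and a lowest, median and highest count of 0, 40.5 and 784 per cell, while Sele gave 4881 UMIs in total and 0, 18.5 and 244 per cell. In the control library Selp gave 692 UMIs in total and 0, 27.0 and 212 per cell, and Sele gave 319 UMIs in total and 0, 12.5 and 114 per cell. As CPM, Selp stood at 2605 in OTM and 2760.2 in control cells, and Sele at 1049.6 in OTM and 1272 in control cells, and since the rule chose the cells by these genes, the values only describe them. Both genes were seen together in 139 of the 150 OTM cells and 10 of the 12 control cells. Selp alone was seen in 7 OTM cells and 1 control cell, and Sele alone in 4 OTM cells and 1 control cell. Selp UMIs outnumbered Sele UMIs in 120 OTM and 9 control cells, and Sele UMIs outnumbered Selp UMIs in 27 OTM and 3 control cells. Among the OTM endothelial cells 33 had no selectin UMI, 13 had 1 and 7 had 2, just outside the threshold, while 7 had 3, just inside it. Of the 150 selectin-positive cells, 131 had 10 or more selectin UMIs, and in the control library 9 of 12 did.

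**Figure D1:**
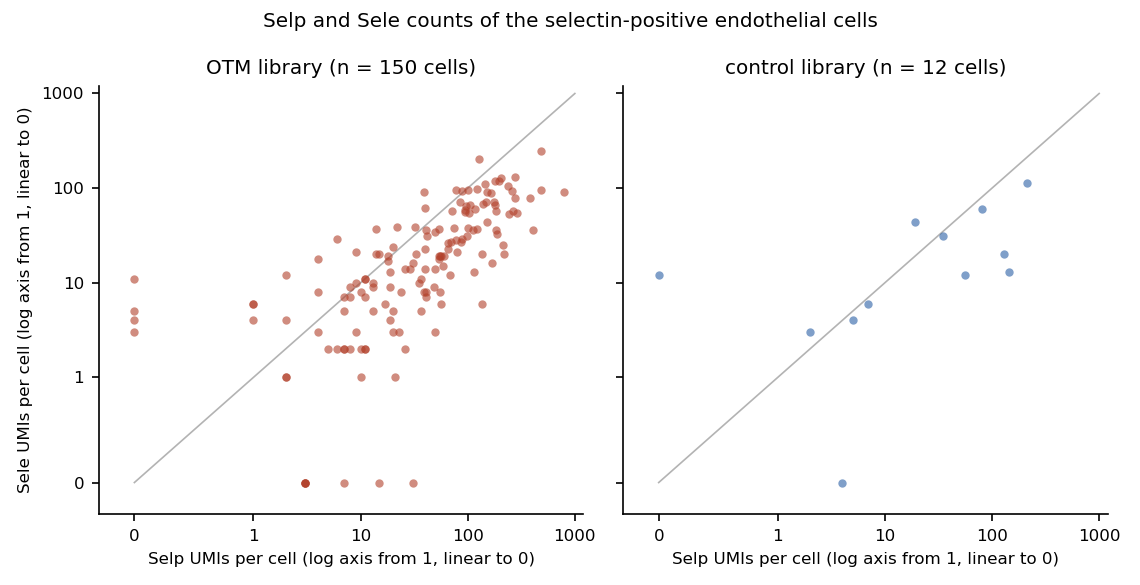
Selp UMIs (x axis) against Sele UMIs (y axis) in each selectin-positive endothelial cell of the OTM library (left, 150 cells) and the control library (right, 12 cells), on axes that are logarithmic from 1 and linear down to 0. The grey line marks equal counts, and most points lie to its right, with Selp in excess in 120 OTM and 9 control cells.

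The start regions of both selectin genes are shown because these genes define the cells, with that of Cxcl1, a neutrophil-attracting chemokine that the rule did not use, for contrast. The sequences are from RefSeq on build GRCm38.p6, run 5′ to 3′ on the plus strand, and span 250 bases before to 50 bases after the annotated start, at chr1:164115014-164115313 for Selp, chr1:164047984-164048283 for Sele and chr5:90890995-90891294 for Cxcl1. Capitals mark a match to the NF-kB consensus, the binding motif of the factor through which interleukin 1 and tumour necrosis factor act, searched on both strands.
Selp: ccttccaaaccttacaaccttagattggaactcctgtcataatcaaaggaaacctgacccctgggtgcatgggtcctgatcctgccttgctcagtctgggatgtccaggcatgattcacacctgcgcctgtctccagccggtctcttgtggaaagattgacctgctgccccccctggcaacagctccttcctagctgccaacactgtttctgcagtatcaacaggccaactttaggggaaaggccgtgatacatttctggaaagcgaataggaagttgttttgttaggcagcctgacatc
Sele: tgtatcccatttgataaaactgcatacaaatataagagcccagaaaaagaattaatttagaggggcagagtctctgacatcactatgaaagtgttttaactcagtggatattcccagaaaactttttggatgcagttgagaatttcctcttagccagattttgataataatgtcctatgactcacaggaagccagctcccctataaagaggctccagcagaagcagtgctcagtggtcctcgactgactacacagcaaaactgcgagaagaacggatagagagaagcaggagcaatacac
Cxcl1: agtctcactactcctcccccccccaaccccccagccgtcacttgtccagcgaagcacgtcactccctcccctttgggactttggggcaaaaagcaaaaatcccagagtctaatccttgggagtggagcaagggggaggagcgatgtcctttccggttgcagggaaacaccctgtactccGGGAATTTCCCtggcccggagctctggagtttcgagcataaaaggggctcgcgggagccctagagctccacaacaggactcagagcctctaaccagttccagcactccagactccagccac
The consensus was found in the Cxcl1 window, where the matches on the 2 strands overlap, and in neither selectin window. Of the 32851 RefSeq promoter windows searched, 2779 (8.46%) held a match. A missing match says only that these letters do not occur in these windows, and sites that depart from the consensus would be missed. The search therefore does not show that a selectin gene lacks an NF-kB site. Sele (chr1:164048234-164057677) and Selp (chr1:164115264-164150026) lie near each other on chromosome 1, and F5, described below, follows them at chr1:164151838-164220277 on the same strand.

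The label was checked against markers. The 22 genes of a list of endothelial identity, the 5 genes of the rule included, summed to 11101 CPM in selectin-positive and 128 CPM in non-endothelial cells of the OTM library. Among those that the rule did not use, Plvap, a component of the diaphragms of fenestrae, stood at 1050.05 CPM in selectin-positive and 1.96 CPM in non-endothelial cells. The VEGF receptor gene Kdr stood at 308 and 0.960 CPM in the same order of groups, the angiopoietin receptor gene Tek at 299 and 0.549 CPM, and the transcription factor gene Erg at 258 and 6.76 CPM. In the control library Plvap stood at 1009 CPM in selectin-positive and 0.190 CPM in non-endothelial cells, Kdr at 219 and 2.09 CPM, Tek at 427 and 2.28 CPM, and Erg at 183 and 8.17 CPM in those groups. These 4 genes, which the rule did not use, were thus higher in the selectin-positive cells of both libraries.

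RNA of other cell types was low in most of the cells and concentrated in a few. Markers of mural cells, which wrap small vessels, summed to 248 CPM in selectin-positive and 2452 CPM in selectin-low cells of the OTM library, with 65.6% of the UMIs in 1 of the 150 selectin-positive cells. The pericyte gene Rgs5 stood at 129 CPM in selectin-positive and 1579 CPM in selectin-low cells. Fibroblast markers summed to 1164 CPM in selectin-positive and 1575 CPM in selectin-low cells, with 60.5% and 60.7% of the UMIs in 1 cell of each group. Neutrophil markers summed to 29.0 and 19.0 CPM in those groups, with Mmp8 and Cxcr2 at 0 UMIs in the selectin-positive cells, and macrophage or monocyte markers to 143 and 159 CPM. In the control library 1 selectin-positive cell stood apart. Genes of the other-cell lists made up 13.1% of its 48946 UMIs, against at most 0.138% in the other 11 control cells, and it held 3347 of the 3351 Col1a1 UMIs and 314 of the 314 Bglap UMIs of the 12 cells. It also carried 144 Selp, 13 Sele and 79 UMIs of the 5 endothelial genes, and Scrublet, a doublet caller, did not mark it. Some results that rest on the control cells are therefore also given without it.

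Selectin-positive were compared with selectin-low endothelial cells of the OTM library over 9577 genes with enough UMIs. Of these genes, 508 (5.30%) were at least 2-fold higher and 556 (5.81%) at least 2-fold lower in selectin-positive cells, and the median log2 ratio was 0.02. The venous list had the highest and the arterial list the lowest median of the 20 lists described. The lists were chosen with earlier results of these data known, so this order only describes them. Of 17 genes of a list of venous markers, 12 were at least 2-fold higher and 1 at least 2-fold lower, with a median log2 ratio of 1.21. Of 21 arterial genes, none was at least 2-fold higher and 14 were at least 2-fold lower, and the list median was -1.17. The identity list had 2 of 22 genes at least 2-fold higher and 1 lower, with a median of 0.14.

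Among the venous genes, Ackr1 encodes the atypical receptor that binds chemokines on venules. It gave 945 UMIs in 68 of the 150 selectin-positive cells and 10 UMIs in 3 of the 53 selectin-low cells, or 203 against 6.56 CPM, a log2 ratio of 4.95 (4.07 to 6.02). Per 10000 UMIs of a cell its median was 0 in both groups and its highest value 41.5 in selectin-positive and 3.53 in selectin-low cells. Il1r1, the signalling receptor of interleukin 1, stood at 333 CPM in selectin-positive and 62.3 CPM in selectin-low cells, a log2 ratio of 2.42 (2.12 to 2.73), and was seen in 129 of 150 and 24 of 53 cells of those groups. Lrg1, a secreted glycoprotein that modifies TGF-beta signalling in vessels, had a median of 4.29 and a highest value of 36.6 per 10000 UMIs in selectin-positive cells, and 0.77 and 8.93 in selectin-low cells. Its sums were 582 CPM in selectin-positive and 128 CPM in selectin-low cells, log2 2.19 (1.98 to 2.40). The ranges of single cells overlapped for each of these genes, since cells without a UMI occurred in both groups.

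Von Willebrand factor (Vwf), the platelet-binding cargo of Weibel-Palade bodies, stood at 151 CPM in selectin-positive and 65.6 CPM in selectin-low cells, log2 1.21 (0.90 to 1.52). Further venous genes at least 2-fold higher were Bst1 (log2 1.96), the prostaglandin synthase Ptgs1 (1.51), the semaphorin and VEGF co-receptor Nrp2 (1.41), the cytokine receptor chains Csf2rb (1.17) and Il6st (1.09), the apelin receptor Aplnr (1.05) and the metalloproteinase Tll1 (3.24). Nr2f2, the transcription factor of venous fate, stood at 213 CPM in selectin-positive and 141 CPM in selectin-low cells and stayed under 2-fold at log2 0.60 (0.38 to 0.82). So did Ephb4, the venous receptor of ephrin B2, at log2 0.54 (0.20 to 0.89).

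The arterial genes ran the other way. Gja4, the gap junction protein connexin 37, stood at 26.5 CPM in selectin-positive and 195 CPM in selectin-low cells, log2 -2.88 (-3.19 to -2.57), and was detected in 13.3% and 50.9% of the cells of those groups. Sema3g, a semaphorin of arterial endothelium, stood at 17.4 and 117 CPM in the same groups, the tyrosine kinase gene Bmx at 3.23 and 42.0 CPM, and the Notch target Hey1 at 9.25 and 40.6 CPM. The Notch ligand Jag2 and the receptor Notch4 had log2 ratios of -1.34 and -1.13. Members of the arterial list close to equal were the ephrin gene Efnb2 (log2 -0.09, -0.31 to 0.14), Jag1 (-0.05, -0.35 to 0.26), Notch1 (-0.23, -0.43 to -0.04) and Nrp1 (0.16, -0.01 to 0.34). The tight junction gene Cldn5, from the identity list, had a median of 0 and a highest value of 26.9 per 10000 UMIs in selectin-positive cells, and 2.21 and 29.3 in selectin-low cells, with sums of 147 and 452 CPM in those groups, log2 -1.62 (-1.77 to -1.46).

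Mural markers were lower in the selectin-positive cells together with the arterial genes. When cells with over 2% of UMIs in the other-cell lists were left out, 148 selectin-positive and 49 selectin-low cells remained, and the medians were 1.15 for the venous and -1.20 for the arterial list, but mural markers still summed to 86.3 CPM in selectin-positive and 1370.3 CPM in selectin-low cells. Leaving out instead each cell with over 0.1% of its UMIs in mural markers, a choice made after the data were seen, left 148 selectin-positive cells with 26.5 CPM and 45 selectin-low cells with 40.9 CPM of these markers. The venous median was then 1.32 and the arterial median -1.18, while 645 genes were at least 2-fold higher and 352 at least 2-fold lower. The log2 ratio of Il1r1 was 3.50 without those cells, that of Prkar2b -2.24 and that of Col8a1 -1.61, against -3.07 for Prkar2b and -2.52 for Col8a1 with all cells.

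**Figure D2:**
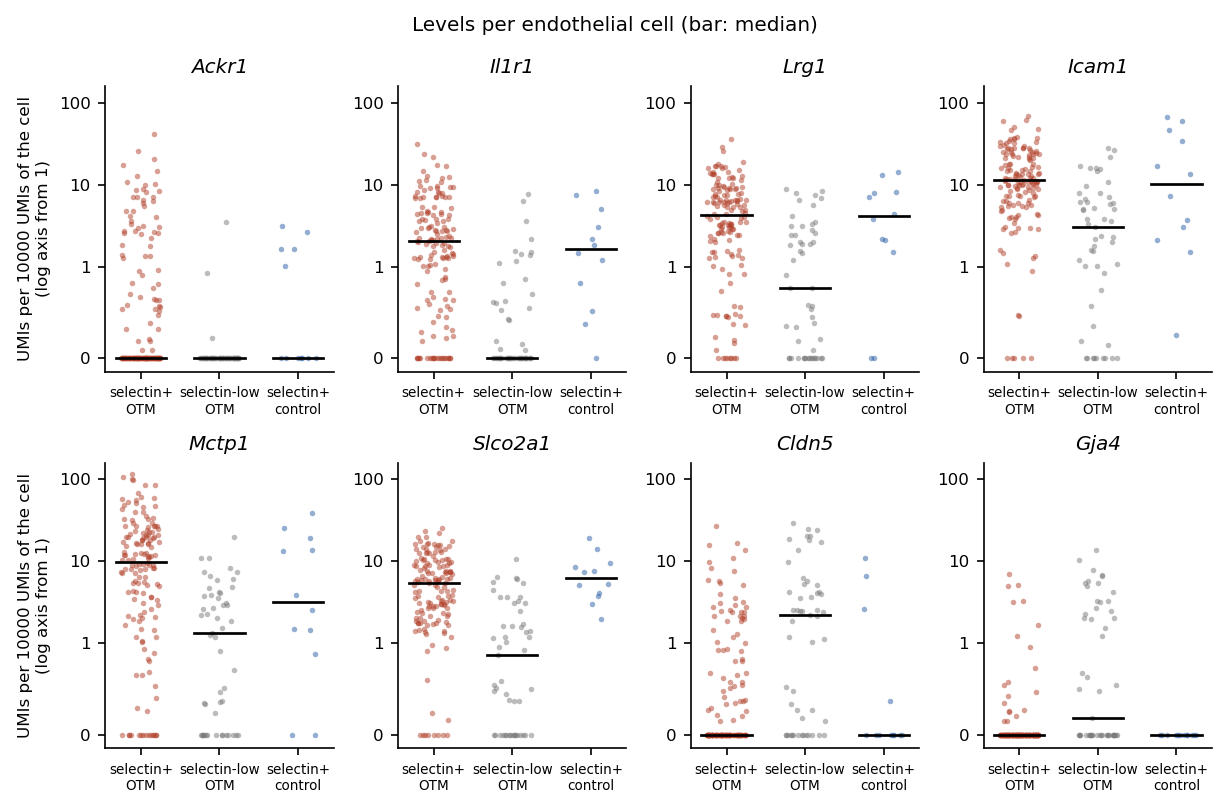
UMIs per 10000 UMIs of each endothelial cell for 8 genes that did not choose the cells, in selectin-positive cells of the OTM library (red), selectin-low cells of the OTM library (grey) and selectin-positive cells of the control library (blue), with the median as a bar and an axis that is logarithmic from 1. Il1r1, Lrg1, Icam1, Mctp1 and Slco2a1 have higher medians in selectin-positive than in selectin-low OTM cells, Cldn5 and Gja4 have lower ones, and the points of the groups overlap for all 8 genes.

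In the ranking by the bound of the counting interval nearest to equality, among genes with at most 25% of their UMIs in 1 cell and at least 0.5 times their level in non-endothelial cells, the 15 highest were F5, Ackr1, Serpinb1a, Cmah, Mctp1, Robo2, Ctnnal1, Tll1, Cfb, Tnfrsf11a, Olr1, Il1r1, Slco2a1, Flrt2 and Lrg1. F5, which encodes coagulation factor V, gave 224 UMIs in 35.3% of the selectin-positive cells and 0 UMIs in the 53 selectin-low cells, with a lower 95% counting bound of 4.30 on the log2 ratio. Serpinb1a, an inhibitor of neutrophil proteases, stood at 290.3 CPM in selectin-positive and 19.7 CPM in selectin-low cells, log2 3.88 (3.36 to 4.46). Mctp1, a calcium-binding membrane protein, was the most abundant of the 15, with 1635 CPM in selectin-positive and 198 CPM in selectin-low cells, log2 3.05 (2.88 to 3.22). Slco2a1, the transporter that takes prostaglandins up from the blood, stood at 639 CPM in selectin-positive, 129.8 CPM in selectin-low and 1.65 CPM in non-endothelial cells. Tnfrsf11a encodes RANK, the receptor of the osteoclast factor RANKL. It was seen in 36% of selectin-positive and 3.77% of selectin-low cells, with 219 and 8 UMIs, log2 3.17 (2.16 to 4.40).

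Some of these genes were also common in cells rich in S100a8 and S100a9, the neutrophil genes. With cells thinned to 5000 UMIs, F5 was seen in 13.0% of 146 selectin-positive, 0% of 51 selectin-low and 38.0% of 92 S100a8- and S100a9-rich OTM cells. Mctp1 was seen in 83.6%, 41.2% and 77.2% of those groups, and Lrg1 in 82.2%, 43.1% and 91.3%. Without thinning the shares were 35.3%, 0% and 39.7% for F5, 90.7%, 71.7% and 77.5% for Mctp1, and 94.7%, 69.8% and 92.7% for Lrg1, at median depths of 22981.5, 21416 and 5981 UMIs. Neutrophil markers summed to 29.0 CPM in selectin-positive and 19.0 CPM in selectin-low cells, and their part in these 3 genes was not tested. Ackr1, Tnfrsf11a and Slco2a1 were seen in 0 of the 92 thinned S100a8- and S100a9-rich cells, with an exact upper 95% bound of 3.93%, and F5 in 0 of the 51 thinned selectin-low cells, with an upper bound of 6.98%.

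Cmah, the enzyme that makes the sialic acid Neu5Gc, stood at 73.8 CPM in selectin-positive and 3.93 CPM in selectin-low cells. Cfb, complement factor B, stood at 32.3 and 2.62 CPM in those groups, the Slit receptor Robo2 at 41.5 and 2.62 CPM, and Ctnnal1, alpha-catulin, at 51.4 and 4.59 CPM. Flrt2, an adhesion protein with leucine-rich repeats, stood at 166 CPM in selectin-positive and 29.5 CPM in selectin-low cells. Olr1, the receptor of oxidised low-density lipoprotein, gave 78 UMIs in selectin-positive and 1 UMI in selectin-low cells, log2 4.68 (2.16 to 10.00). At 16.8 CPM in selectin-positive cells it was close to its 14.3 CPM in non-endothelial cells, where Robo2 stood at 30.0 CPM. The non-endothelial levels of the others were 57.8 CPM for Flrt2, 11.6 for Cmah, 11.1 for Ctnnal1 and 0.617 for Cfb.

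The 15 lowest genes by the same ranking were Eps8l2, Bmx, Nebl, Osbp2, Fbln5, Prkar2b, Sema3g, Fn1, St8sia6, Col8a1, Tox2, Prdm16, Nrarp, Itga1 and Syt11. Fn1, fibronectin, stood at 51.2 CPM in selectin-positive and 297 CPM in selectin-low cells, log2 -2.54 (-2.77 to -2.31), with 408 CPM in non-endothelial cells. Fbln5, an elastic fibre protein, stood at 18.1 and 135 CPM in those endothelial groups, and Itga1, the integrin chain that binds collagen, at 45.6 and 189 CPM. Nrarp, a feedback gene of Notch signalling, stood at 16.6 CPM in selectin-positive and 77.4 CPM in selectin-low cells, log2 -2.22 (-2.66 to -1.80). Prdm16, a transcription factor gene, had a log2 ratio of -2.39 (-2.99 to -1.81), and the sialyltransferase gene St8sia6 one of -2.62 (-3.00 to -2.24).

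**Figure D3:**
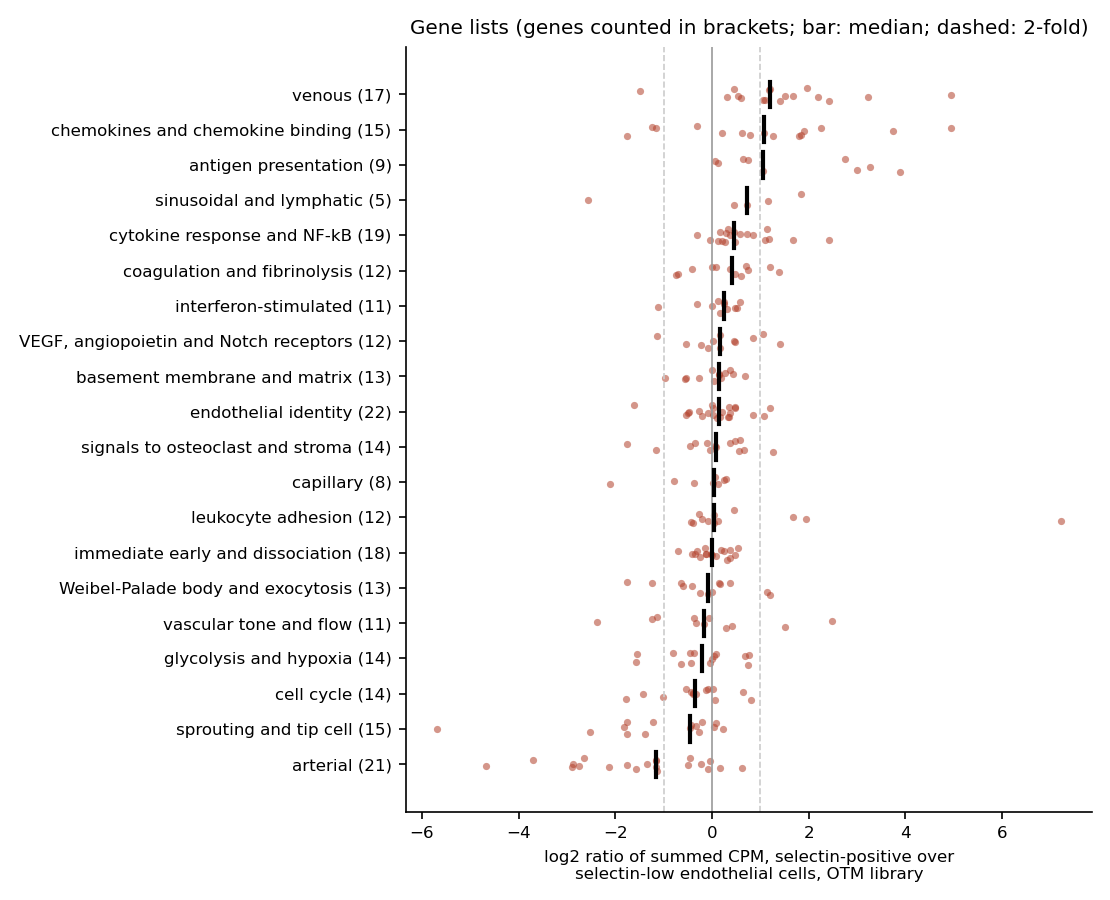
Log2 ratio of summed CPM of selectin-positive over selectin-low endothelial cells of the OTM library for the genes of 20 lists, each point 1 gene and each bar the median of a list, with dashed lines at 2-fold. The venous, chemokine and antigen presentation lists have the highest medians (1.21, 1.07 and 1.05) and the arterial list the lowest (-1.17), and Selp and Sele are left out.

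Genes for leukocyte capture other than the selectins were mixed. Of 12 counted genes of the adhesion list, with Selp and Sele left out, 3 were at least 2-fold higher (Icam1, Alcam and Glycam1) and none was lower, and the median was 0.03. Icam1 had a median of 11.3 and a highest value of 68.9 per 10000 UMIs in selectin-positive cells, and 3.06 and 27.7 in selectin-low cells. Its sums were 1420.1 CPM in selectin-positive and 443 CPM in selectin-low cells, log2 1.68 (1.57 to 1.80). Vcam1 stood closer to equal at 357 and 261 CPM in those groups, log2 0.45 (0.29 to 0.61), as did the junction genes F11r (-0.09, -0.26 to 0.08) and Jam2 (-0.26, -0.42 to -0.09). Alcam, an adhesion molecule of the immunoglobulin family, had a log2 ratio of 1.94 (1.56 to 2.35). Glycam1, which encodes a mucin that L-selectin binds on the high endothelial venules of lymph nodes, gave 2724 UMIs in 7 of the 150 selectin-positive cells, 2165 of them in 1 cell with 78 Selp, 28 Sele and 18 Ackr1 UMIs. Madcam1, another ligand of such venules, gave 2 UMIs in all selectin-positive OTM cells together. In the control library Glycam1 gave 0 UMIs in the 12 selectin-positive cells.

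Chemokine and growth factor genes were mostly higher in the selectin-positive cells. Of 15 counted genes of this list 8 were at least 2-fold higher and 3 at least 2-fold lower, around a median of 1.07. Cxcl1, which attracts neutrophils, stood at 1206 CPM in selectin-positive and 574 CPM in selectin-low cells, log2 1.07 (0.97 to 1.18). Ccl2, which attracts monocytes, stood at 1177 and 337 CPM in those groups, log2 1.80 (1.67 to 1.94), and was seen in 80 of 150 and 17 of 53 cells. A single cell held 13.4% of the Ccl2 UMIs in the selectin-positive and 53.3% in the selectin-low group. Csf3, the granulocyte colony-stimulating factor, stood at 355 CPM in selectin-positive and 95.1 CPM in selectin-low cells, log2 1.90 (1.66 to 2.16), with 22.3% and 68.3% of the UMIs in 1 cell of each group. Of its 1651 UMIs in selectin-positive cells, 1242 lay in the 37 cells with the highest selectin share of their UMIs. The 38 cells with the lowest share and the 38 next to them stood at 30.8 and 17.8 CPM, below the selectin-low cells. The interferon-induced Cxcl10 was seen in 50 of 150 and 7 of 53 cells, log2 2.26 (1.93 to 2.61), and the macrophage factor Csf1 had a log2 ratio of 1.26 (0.77 to 1.78). Ccl7 gave 123 UMIs in selectin-positive cells, 60.2% of them in 1 cell, and 0 in selectin-low cells. The stromal chemokine Cxcl12 (log2 -1.17, -1.36 to -0.97), the membrane-bound Cx3cl1 (-1.23, -1.65 to -0.82) and the cytokine gene Il6 (-1.75, -2.02 to -1.48) were lower in selectin-positive cells.

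Genes of the response to cytokines through NF-kB had 5 of 19 members at least 2-fold higher, none lower and a median of 0.45. Besides Icam1, Il1r1, Il6st and Csf2rb this was Nfkbiz, an inducible regulator of NF-kB, at 561 CPM in selectin-positive and 256 CPM in selectin-low cells. Il1r1, Il6st and Csf2rb were also counted in the venous list and Icam1 in the adhesion list, so the results of these lists are not independent. The inhibitor genes Nfkbia and Tnfaip3 had log2 ratios of 0.20 (0.14 to 0.27) and 0.85 (0.64 to 1.06), and the tumour necrosis factor receptor gene Tnfrsf1a 0.30 (0.10 to 0.50). The immediate early and heat shock genes that tissue digestion induces had none of 18 members past 2-fold in either direction and a median of -0.01.

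Sprouting genes were lower in part. Of 15 genes none was at least 2-fold higher and 7 were at least 2-fold lower, and the list median was -0.46. Esm1, a tip cell gene, gave 24 UMIs in selectin-positive and 404 UMIs in selectin-low cells, where 47.8% came from 1 cell. Apln, the apelin ligand, stood at 26.2 CPM in selectin-positive and 151 CPM in selectin-low cells, the Tie2 ligand Angpt2 at 19.1 and 64.9 CPM, and the placental growth factor gene Pgf at 114 and 267 CPM. Of the receptors for VEGF, angiopoietin and Notch signals Flt1 belongs to the rule, Kdr was near equal (log2 0.03, -0.13 to 0.18) and Tek stood at log2 0.85 (0.66 to 1.05).

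Among genes of Weibel-Palade bodies and exocytosis, 2 of 13 were at least 2-fold higher (Vwf and Rab3d) and 2 lower (Angpt2 and the endothelin gene Edn1) in selectin-positive cells, around a median of -0.09. In the list of coagulation and fibrinolysis F8, factor VIII, joined Vwf as 2-fold higher (log2 1.39, 0.52 to 2.39). Of the genes of vascular tone, Ptgs2, the inducible prostaglandin synthase, stood at log2 2.47 (1.75 to 3.30) and Edn1 at -1.23 (-1.43 to -1.04), with 109 CPM in selectin-positive and 258 CPM in selectin-low cells. None of 13 basement membrane genes passed 2-fold, with Col4a1 at 2712 CPM in selectin-positive and 2441 CPM in selectin-low cells. Antigen presentation had 5 of 9 genes at least 2-fold higher, but a single selectin-positive cell held 91.0% of the UMIs of Cd74, and a single cell likewise held 97.2% for H2-Aa and 97.9% for H2-Eb1. The class I genes H2-K1 and H2-D1 had log2 ratios of 0.63 and 0.07.

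Of the signals to osteoclasts and stroma 1 of 14 was at least 2-fold higher and 2 were lower, around a median of 0.08. Tnfsf11, the RANKL gene, gave 2 UMIs in all selectin-positive and 3 in all selectin-low OTM cells, and its decoy receptor gene Tnfrsf11b gave 5 and 16 UMIs in those groups. Kitl, the KIT ligand, stood at 674 CPM in selectin-positive and 459.5 CPM in selectin-low cells, log2 0.55 (0.43 to 0.67). The remaining lists had medians between -0.36 for the cell cycle (3 of 14 at least 2-fold lower) and 0.72 for sinusoidal and lymphatic genes (2 of 5 counted at least 2-fold higher, 1 lower). Of the latter, Prox1, the lymphatic transcription factor, stood at 24.9 CPM in selectin-positive and 11.1 CPM in selectin-low cells, while Ccl21a, a chemokine of lymphatic vessels, gave 0 UMIs in both.

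The selectin-positive cells were not uniform. The 150 OTM cells were ordered by the selectin share of their UMIs and cut into groups of 38, 38, 37 and 37 cells. These were set after the 33 selectin-low cells with 0 and the 20 with 1 or 2 selectin UMIs. The selectin shares of those 20 cells overlapped those of the first 38, since the threshold counts UMIs and not their share. Median depths were 23856, 20617, 36080.5, 18494.5, 22458 and 20609 UMIs from the first of the 6 groups to the last. Along these 6 groups the venous list summed to 1640.2, 1888, 2583, 3798, 5389 and 7586 CPM, higher at each step. The arterial list summed to 3283, 1919, 2071, 1213, 1255 and 1117 CPM. The cytokine response list summed to 5787, 4296, 6027, 6542, 8707 and 11181 CPM and the chemokine list to 1822, 2142, 3011, 2336, 4297 and 7253 CPM, with most of their gain in the upper 2 groups. The venous and cytokine response lists share Il1r1, Il6st and Csf2rb, so their rises are not independent. The 38 selectin-positive cells with the lowest selectin share lay within the range of the 2 selectin-low groups for arterial genes. The identity list stayed between 9877 and 11491 CPM throughout.

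Single genes changed at different paces along these groups. Icam1 stood at 442, 444, 867, 1048, 1644 and 2422 CPM along the same 6 groups, and Ackr1 at 0, 16.5, 10.7, 46.4, 281 and 582 CPM, reaching over 100 CPM only in the last 2. Mctp1 stood at 207, 185, 398, 1131, 2319 and 3282 CPM. The arterial gene Gja4 stood at 273 CPM in cells with no selectin UMI and at 3.23 CPM in the last group, with 76.9 CPM already in the first of the 4 selectin-positive groups. The mural marker list summed to 2559 CPM in cells with no selectin UMI, 725 CPM in the first and 15.1 CPM in the last selectin-positive group. The part of the mural RNA and of sequencing depth in the values along these groups was not tested.

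**Figure D4:**
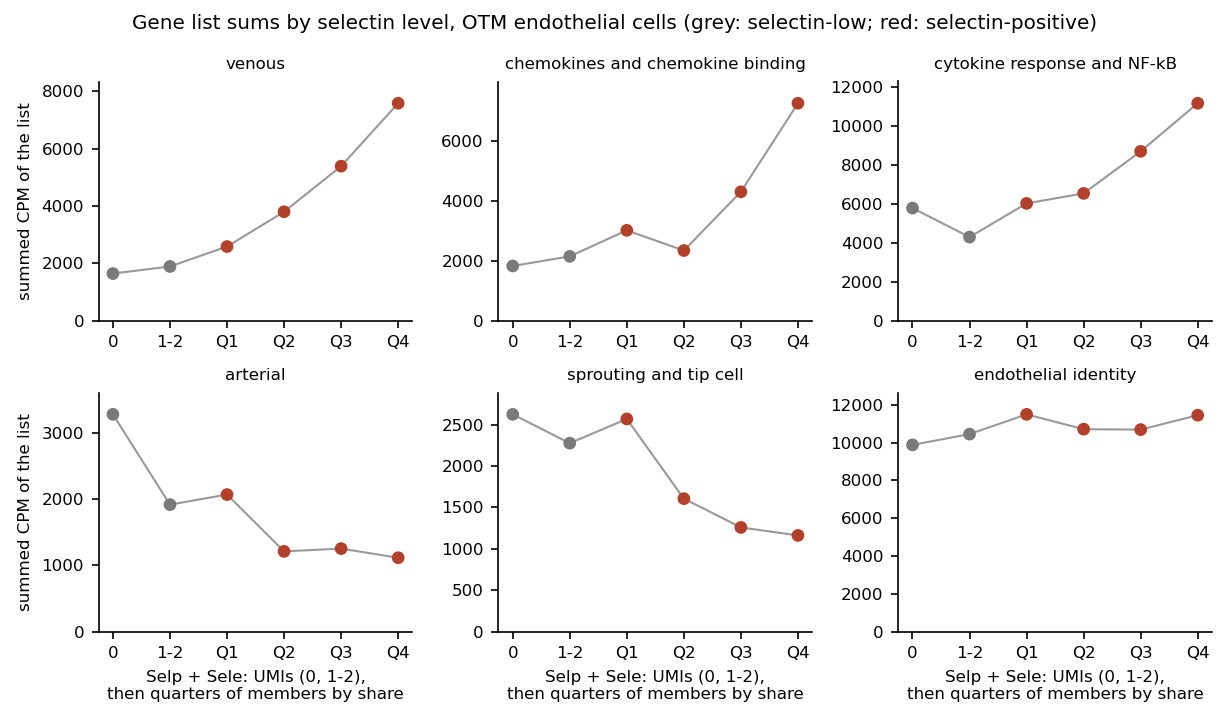
Summed CPM of 6 gene lists (y axis, from 0) in OTM endothelial cells grouped by selectin content (x axis). The first groups are 33 cells with 0 UMIs and 20 cells with 1 or 2 UMIs. The selectin-positive cells follow in groups of 38, 38, 37 and 37 by their selectin share. The selectin shares of the 20 cells overlap those of the first 38, which have the highest median depth. The venous and cytokine lists share Il1r1, Il6st and Csf2rb. The venous list is higher at each step, the chemokine and cytokine lists gain most in the upper 2 groups, the arterial and sprouting lists are lower from the second selectin-positive group on, and the identity list is nearly level.

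The balance of the 2 selectins was compared among the 113 OTM cells with at least 20 selectin UMIs, cut into 38, 38 and 37 cells by the share of Sele in these UMIs (0% to 22.9%, 23.1% to 37.3% and 37.6% to 82.9%). Ackr1 stood at 434, 252 and 87.8 CPM from the lowest to the highest Sele share, Il1r1 at 568, 444 and 209 CPM, Lrg1 at 915, 552 and 439 CPM and Vwf at 222, 203 and 107 CPM. Icam1 ran the other way with 1119, 1789.5 and 1968 CPM, and so did Cxcl10 with 91.3, 188 and 670.3 CPM, where 61.7%, 39.9% and 29.1% of the UMIs came from 1 cell of each group. These 4 venous genes were thus highest in the group with the lowest Sele share, and Icam1 in the group with the highest. Emcn, which belongs to the rule, stood at 1596, 1656 and 1546 CPM.

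When the endothelial cells of both libraries were clustered on 1500 variable genes with Selp and Sele left out, 9 clusters came out, and selectin-positive OTM cells lay in all 9. Cluster 9, with 4 selectin-positive among 11 OTM cells, carried 8446 CPM of mural markers, against 3.08 to 347 CPM in the OTM cells of the other clusters. Its 1 control cell was the one with 13.1% other-cell markers. In the OTM library they made up 100% of the 28 cells of cluster 3 (87.7% to 100%) and of the 11 cells of cluster 7 (71.5% to 100%), but 32.4% of the 34 cells of cluster 2 (17.4% to 50.5%). The largest number, 36, lay in cluster 1, where they were 80.0% of 45 cells (65.4% to 90.4%). Selp summed to 5671 CPM in the OTM cells of cluster 7 and 78.7 CPM in those of cluster 2. Of the 12 control cells, 5 lay in cluster 7 and 4 in cluster 6.

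The comparison of selectin-positive cells between the libraries asked how these vessels' transcripts stood after 6 days of force. Over 5658 genes counted, 576 (10.2%) were at least 2-fold higher and 208 (3.68%) at least 2-fold lower in OTM cells. The median log2 ratio was 0.27. The rule of at least 20 UMIs in the higher group asked for more CPM where that group was the control cells, which held fewer UMIs. The counts and medians between the libraries depend on this rule, and 0.27 is not a neutral level for the ratios below. Thinning each cell to 5000 UMIs left 272 genes at least 2-fold higher and 46 lower. The cells lay in different clusters in the 2 libraries: clusters 1, 3 and 4 held 36, 28 and 25 of the 150 OTM cells and 1, 0 and 0 of the 12 control cells, while clusters 6 and 7 held 12 and 11 of the OTM cells and 4 and 5 of the control cells. The part of this mix in the ratios below was not tested. In the ranking by counting interval the 5 highest genes were Fabp4, Csf3, Igfbp7, Prdm1 and Nav2, and the 5 lowest were Cp, Tsc22d3, Igfbp4, Mgp and Cdk8.

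Igfbp7, a secreted protein that binds insulin-like growth factors and is abundant in vessels, had a lowest, median and highest value of 0, 43.1 and 135 per 10000 UMIs in the 150 OTM cells, and 0.44, 10.5 and 33.6 in the 12 control cells. The ranges overlapped, and the sums were 4806 CPM in OTM and 1009 CPM in control cells, log2 2.25 (2.07 to 2.44). Csf3 gave 1651 UMIs in 73 of 150 OTM cells and 10 UMIs in 2 of 12 control cells, or 355 and 39.9 CPM, log2 3.15 (2.27 to 4.22). Fabp4, a fatty acid carrier of capillaries, gave 602 UMIs in OTM and 1 UMI in control cells, log2 5.02 (2.54 to 10.33). Prdm1, the repressor BLIMP1, was seen in 72% of OTM and 25% of control cells, with 682 and 3 UMIs, log2 3.62 (2.06 to 5.90). Nav2, of the neuron navigator family, stood at 651 CPM in OTM and 116 CPM in control cells. With cells thinned to 5000 UMIs, and control sums raised to the floor of 3 UMIs, the log2 ratio was 1.22 for Fabp4, 1.69 for Prdm1 and 3.02 for Csf3.

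Among the genes lower in OTM cells, Cp, the copper carrier ceruloplasmin, stood at 84.9 CPM in OTM and 347 CPM in control cells, log2 -2.03 (-2.37 to -1.68). Mgp, the inhibitor of mineral formation matrix Gla protein, had a median of 1.78 per 10000 UMIs in OTM and 16.6 in control cells, with sums of 395 and 1161 CPM, log2 -1.55 (-1.73 to -1.37). Tsc22d3, the glucocorticoid-induced gene GILZ, stood at 64.3 CPM in OTM and 227 CPM in control cells, Igfbp4 at 152 and 483 CPM, and the kinase gene Cdk8 at 128 and 399 CPM. These 5 were each seen in at least 9 of the 12 control cells. At most 23.0% of their UMIs lay in 1 control cell, but the ranking admitted only genes with at most 25%. In non-endothelial cells Cdk8 was also lower in the OTM library, at 163 CPM against 415 CPM in control. The same held for Tsc22d3, at 125 and 211 CPM. Cp (23.7 and 6.46 CPM), Igfbp4 (1021 and 853 CPM) and Mgp (472 and 65.6 CPM) were higher in the non-endothelial OTM cells. Thinned to 5000 UMIs, Igfbp4 had a log2 ratio of -0.97 and Cdk8 one of -1.20.

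The chemokine list had 8 of 12 counted genes at least 2-fold higher in OTM cells, none lower and a median of 1.24, or 0.56 with cells thinned to 5000 UMIs. Ccl2 stood at 1177 CPM in OTM and 451 CPM in control cells, log2 1.38 (1.12 to 1.67), but 97.3% of the control UMIs lay in 1 cell. Cxcl10 stood at 248 and 47.9 CPM, log2 2.38 (1.57 to 3.33), with 91.7% of the control UMIs in 1 cell. Ackr1 stood at 203 and 99.7 CPM, log2 1.03 (0.46 to 1.66), but its share of cells was near equal. It was seen in 45.3% of OTM and 41.7% of control cells, and in 32.9% and 33.3% with cells thinned to 5000 UMIs. Il6 gave 220 UMIs in OTM and 2 in control cells, and Cxcl12 gave 513 and 1. Of the 513 Cxcl12 UMIs, 464 lay in the 38 OTM cells with the lowest selectin share. These cells stood at 310 CPM, against 18.8, 19.8 and 6.46 CPM in the groups with higher shares. The Cxcl12 difference therefore does not describe the selectin-positive cells in general. Cxcl1 and Cxcl2 stayed under 2-fold with log2 ratios of 0.44 (0.25 to 0.64) and 0.60 (0.27 to 0.95), and 1 control cell held 59.6% of the Cxcl1 UMIs. After thinning to 5000 UMIs, Ccl2 was seen in 43.8% of 146 OTM and 16.7% of 12 control cells, Cxcl1 in 80.1% of OTM cells and 6 of the 12 control cells, and Csf3 in 28.8% and 16.7% of those groups. Cells rich in S100a8 and S100a9, a type that should hold little of these transcripts, gave 1.09%, 2.17% and 6.52% for the 3 genes in 92 cells of the OTM library after the same thinning, at a median depth of 5981 UMIs before it. Without thinning the shares were 53.3%, 90.7% and 48.7% in OTM cells and 16.7%, 66.7% and 16.7% in control cells, at a median depth of 22981.5 and 17962 UMIs.

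Basement membrane genes had 4 of 13 members at least 2-fold higher in OTM cells, 1 lower and a median of 0.84. Col4a1, the main collagen of vessel basement membranes, had a median of 21.4 per 10000 UMIs in OTM and 3.61 in control cells, with sums of 2712 and 1029 CPM, log2 1.40 (1.22 to 1.58). Col18a1, the parent chain of endostatin, stood at 683 CPM in OTM and 176 CPM in control cells, log2 1.96 (1.53 to 2.42), and the laminin chain Lamc1 at 458 and 172 CPM, log2 1.42 (0.98 to 1.89). Sparc was at least 2-fold lower (log2 -1.36, -1.43 to -1.29), but without the control cell with 13.1% other-cell markers its log2 ratio was 0.64. Without that cell the list median was 0.63, and Col4a1 stood at 1.11.

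Other groups differed less or rested on few control UMIs. The cytokine response list had 2 of 19 genes at least 2-fold higher, 1 lower and a median of 0.02. The deubiquitinase gene Tnfaip3 stood at 258 CPM in OTM and 51.9 CPM in control cells, log2 2.32 (1.54 to 3.23), and the transcription factor gene Cebpd at 501 and 1229 CPM, log2 -1.29 (-1.46 to -1.12). Icam1 stood at 1420.1 CPM in OTM and 1915 CPM in control cells, log2 -0.43 (-0.56 to -0.29), and Vcam1 at 357 and 351 CPM, log2 0.02 (-0.29 to 0.35). The venous list had 3 of 17 genes at least 2-fold higher and 5 lower, with a median of -0.43, which turned to 0.32 when cells were thinned to 5000 UMIs. Vwf (log2 -1.13, -1.46 to -0.78) and Nr2f2 (log2 -1.17, -1.44 to -0.88) were among the lower ones. The immediate early list had 3 of 18 genes at least 2-fold lower (Fos, Fosb and Zfp36), none higher and a median of -0.36, with Fos at 756 CPM in OTM and 2034 CPM in control cells.

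Of the stromal signals, Pdgfb, which recruits mural cells, stood at 324 CPM in OTM and 59.8 CPM in control cells, log2 2.44 (1.71 to 3.28), and Kitl at 674 and 335 CPM, log2 1.01 (0.70 to 1.34). Edn1 gave 509 UMIs in OTM and 2 in control cells. In the cell cycle list 8 of 10 counted genes were past 2-fold higher in OTM cells, but in the 12 control cells Top2a gave 1 UMI and Birc5 and Ube2c gave 0, so the size of these differences was not measurable at that depth. F5 and Serpinb1a also depended on the control cell that stood apart. With it and without it the log2 ratio of F5 was -1.49 and 0.28, and that of Serpinb1a was 2.19 and 3.55.

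**Figure D5:**
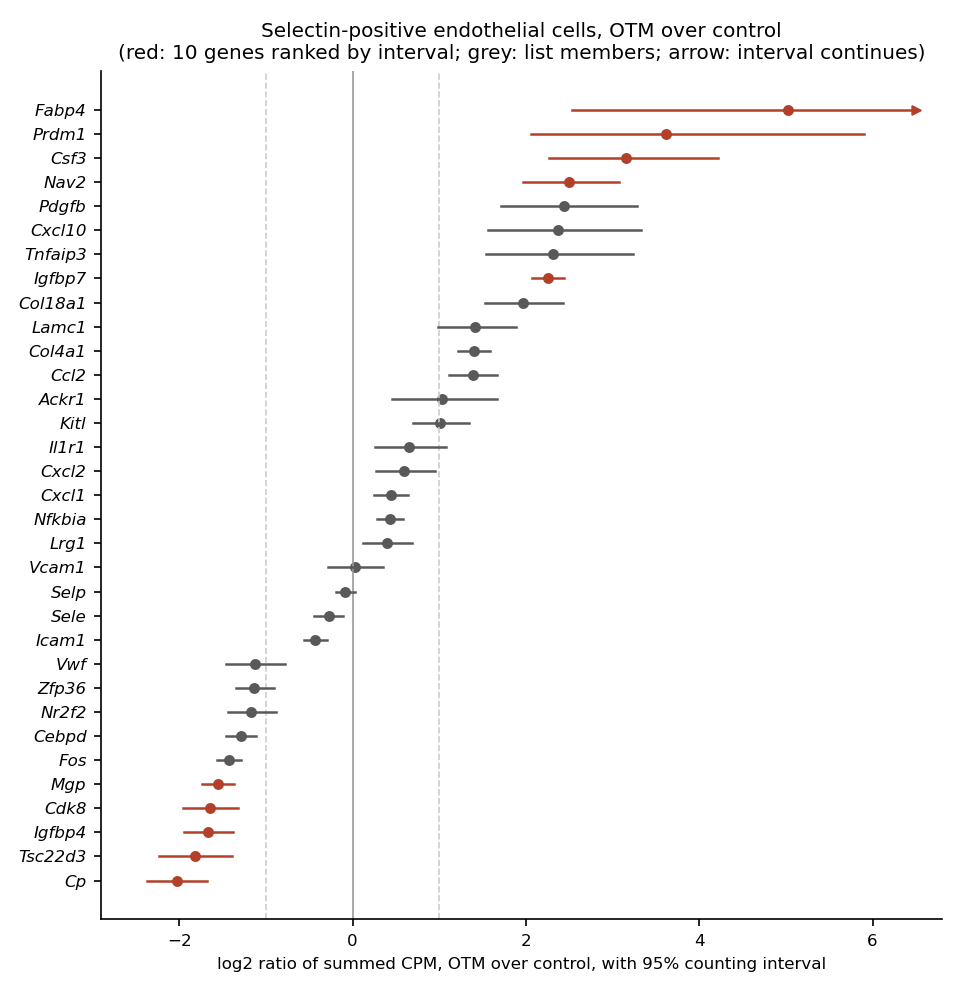
Log2 ratio of summed CPM in selectin-positive endothelial cells, OTM over control (x axis), with its 95% counting interval, for the 10 genes ranked by interval (red) and members of the gene lists (grey), with dashed lines at 2-fold and an arrow where an interval goes on. Selp, Sele, Icam1 and Vcam1 lie within 2-fold, while Csf3, Igfbp7, Pdgfb and Col18a1 lie above it and Cp, Mgp and Fos below.

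In the control library itself, the 12 selectin-positive cells could be set only against 3 selectin-low cells. Of 1968 counted genes 473 (24.0%) were at least 2-fold higher and 178 (9.04%) at least 2-fold lower in the selectin-positive cells, around a median of 0.39. The rule of at least 20 UMIs in the higher group asked for more CPM where that group was the 3 selectin-low cells. The counts and medians here depend on it. The 12 cells include the one with 13.1% other-cell markers, which held 48946 of their 250702 UMIs. No values without that cell are given for this comparison. The venous list had 10 of 14 genes at least 2-fold higher, 1 lower and a median of 1.38, and the arterial list 3 of 7 lower, none higher and a median of -0.54. Icam1 stood at 1915 CPM in selectin-positive and 402 CPM in selectin-low control cells, log2 2.25 (1.74 to 2.81). The selectin-low cells carried 9116 CPM of Ccl21a and 622 CPM of Prox1, both markers of lymphatic vessels, against 0 and 7.98 CPM in the selectin-positive cells, and a single one of the 3 cells held 99.9% of those Ccl21a UMIs.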

How the data were processed

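The authors deposited raw UMI counts per gene and cell as 10x matrices, made with Cell Ranger 7.0.1 and, per the submitters' processing notes, the mm10 (GRCm38) build, with Seurat also named there. The authors' own cell filter is not given in the sources used here. Filtering barcodes to 200 or more genes and no more than 20% mitochondrial UMIs left 1412 of 1539 OTM and 348 of 369 control barcodes, with median depths of 19583 and 14877 UMIs. UMIs were summed over cells, scaled to counts per 1000000 (CPM), and compared as ratios with exact conditional binomial 95% intervals. Shares have exact Clopper-Pearson intervals, and both cover counting error only. A gene was counted in a comparison with at least 20 UMIs in the higher group and, a criterion added after the data were seen, at least 3 expected UMIs in each group. For list medians and counts of 2-fold genes, sums under 3 UMIs were raised to that floor. Genes named from a ranking are the 15 (5 between libraries) a direction whose interval lies farthest from equality, seen in at least 10% of cells of the higher group, with at most 25% of the UMIs in 1 cell and not below 0.5 times their level in non-endothelial cells. Other named genes are members of 20 lists or of 10 lists of other-cell markers. The members and lists were chosen with earlier results of these data known. Cells rich in S100a8 and S100a9 had at least 5% of their UMIs in these genes. Scrublet called 8 OTM and 2 control doublets, of which 2 OTM cells were selectin-positive and 2 selectin-low, and all were kept. Of 16 alternatives, 13 were planned and 3 were added after the data were seen. The ratio script was tested on simulated counts. Python 3.11.15, numpy 2.4.6, scipy 1.17.1, pandas 2.3.3, scanpy 1.11.5 and matplotlib 3.10.9 were used, with GENCODE M21 for gene positions. Values of some single list members are not reported here.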

Additional observations from a re-analysis of the deposited data

Results flagged for a closer look

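Selectin transcripts also occurred in cells that the report's comparisons do not use. Of the 1204 non-endothelial OTM cells, 7 had at least 3 Selp and Sele UMIs, against 0 of the 333 non-endothelial control cells. These 7 cells held between 654 and 7553 UMIs in all and at most 10 selectin UMIs. In 2 of them none of the 5 endothelial genes had a UMI, and in the other 5 these genes gave 1 to 9 UMIs.

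Of the 5 OTM cells that met the endothelial thresholds but were left out for their S100a8 and S100a9 content, 4 had at least 3 selectin UMIs. S100a8 and S100a9 made up 1.75% to 13.9% of the UMIs of these 5 cells, and their selectin counts lay between 1 and 272 UMIs. No control cell was left out for this reason.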

How the results depend on the processing

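No paired analysis was possible because each group was 1 library, and leaving out a replicate was not possible for the same reason. With a selectin threshold of 1 UMI, 83.7% of the OTM endothelial cells were selectin-positive, 342 genes were at least 2-fold lower in selectin-positive than in selectin-low cells, and the arterial median was -1.65. With a threshold of 2 selectin UMIs per 10000 that median was -1.58. Without a filter on UMIs in the higher group, 1172 genes were at least 2-fold lower in selectin-positive than in selectin-low OTM cells and 535 at least 2-fold lower in OTM than in control selectin-positive cells. Thinning cells to 5000 UMIs left 272 genes at least 2-fold higher and 46 lower between the libraries. Leaving out cells with over 0.1% mural markers left 352 genes at least 2-fold lower in selectin-positive than in selectin-low cells. Of 270 values of the 30 ranked genes between selectin-positive and selectin-low cells 233 lay within the counting interval of the value given in the report, and of 90 values of the 10 ranked genes between the libraries 76 did, with no change of sign among these genes. List medians near 0 changed sign in places, and under thinning the median between libraries also turned for vascular tone (0.28, against -0.37) and antigen presentation (-0.19, against 0.69). The cause was not tested. The 12 control cells limit the precision of every comparison between the libraries.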
